A study of Homo sapiens with 9 samples.

Results

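Chromosome 4 genes were examined in OVCA433, an established cell line of ovarian serous adenocarcinoma, after lentiviral delivery of shRNA hairpin #1 or hairpin #3 against MPZL3 or of a control vector. Each group had 3 libraries, marked A, B and C, and all 9 came from the same line, cultured alike, labelled wild type in the control group and described by the study as puromycin-selected after transduction. The study describes the control vector as empty in 1 place and as scrambled in another, and whether it expresses a hairpin is uncertain. The cells were selected pools as far as described, and DNA was not measured, so the number of copies of chromosome 4 in each group is not known.

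The members were the protein-coding genes of chromosome 4 with a mean of at least 10 CPM (counts scaled to a common library size) in the control libraries, without the CXCL genes, AREG, EREG, BTC, FGFR3, PDGFRA, IGFBP7 and LEF1. This gave 359 members of 744 protein-coding genes listed on the chromosome and of 58676 genes listed in all. Chromosome 4 was selected on measured values, namely a low level of its genes with hairpin #1, and everything given below on hairpin #1 is therefore a description of that choice and not a test of it. Leaving out the named exceptions removed 3 genes that reached the minimum. IGFBP7, CXCL1 and CXCL8 differed between hairpin #1 and control by 0.54, 3.54 and 2.68 on the log2 scale. The genes closest to the minimum from below were LIAS, SPRY1 and PACRGL, at 9.74, 9.84 and 9.91 CPM, and those closest from above were PABPC4L, C4orf19 and CTSO, at 10.3, 10.3 and 10.4 CPM.

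A human chromosome carries genes of unrelated function side by side, and each gene is read from its own promoter. The messenger RNA level of most genes in cultured cells depends both on how strongly the promoter is used and on how many copies of the gene the cell carries, and carcinoma lines often carry altered chromosome numbers. Neighbouring genes can also share open or closed chromatin, so a difference that runs across neighbours without regard to function is described along the chromosome rather than by pathway.

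MPZL3, the targeted gene, a predicted cell adhesion molecule of the immunoglobulin superfamily encoded on chromosome 11, lay at 15.6, 21.9 and 21 CPM in the control libraries. It lay at 1.87, 1.98 and 1.8 CPM with hairpin #1 and at 1.94, 0.986 and 1.79 CPM with hairpin #3. The fold change was -3.37 ± 0.22 (log2, SE) with hairpin #1 (adjusted p = 6.065e-08, edgeR) and -3.62 ± 0.23 with hairpin #3 (adjusted p = 4.704e-08, edgeR), and the libraries of either hairpin lay below every control library. Library totals ran from 16850854 to 23890191 counts. Of 7 markers of ovarian serous epithelium, 6 reached 1 CPM in some library and WT1 was at 0 in all 9. Their summed level was 8502 to 9721 CPM with the control vector, 2898 to 3503 CPM with hairpin #1 and 3064 to 3437 CPM with hairpin #3. KRT8 and KRT18 made up most of this sum. EPCAM had a mean of 402 CPM in control, 5.47 CPM with hairpin #1 and 8.92 CPM with hairpin #3. PAX8, a transcription factor of this epithelium, went the other way, from 82.2 to 115 CPM in control to 190.3 to 214 CPM with hairpin #1 and 189 to 229 CPM with hairpin #3. The 4 leukocyte markers together stayed at or below 0.934 CPM in every library. The 3 endothelial markers summed to 0.398 to 0.621 CPM with control, 1.49 to 4.07 CPM with hairpin #1 and 3.29 to 5.84 CPM with hairpin #3, with PECAM1 at or near 0. Of these, CDH5 was at 1.12, 2.24 and 3.51 CPM with hairpin #1 and at 2.88, 3.07 and 5.15 CPM with hairpin #3, with a control mean of 0.0970 CPM. The 3 fibroblast markers summed to 1.89 to 2.43 CPM with control, 12.3 to 23.1 CPM with hairpin #1 and 15.6 to 22.4 CPM with hairpin #3, with DCN at 0 throughout. Most of this rise was PDGFRB, with means of 0.555, 13.8 and 16.8 CPM in the same order of groups, where LUM had 1.55, 4.17 and 2.45 CPM. The part of these marker differences in the results below was not tested.

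With hairpin #1, the members were lower as a body. In each library, the log2 level of every member was set against the control mean (for a control library, against the other 2 controls) and centred on the median of 9125 protein-coding genes of other chromosomes that met the same minimum. The median member then stood at -0.35, -0.38 and -0.45 in hairpin #1 libraries A, B and C, which is 78.5%, 76.7% and 73.3% of control. With hairpin #3 the medians were 0.04, 0.04 and 0.03. The control libraries spread from 0.11 in A over 0.01 in B to -0.11 in C. The 3 hairpin #1 libraries thus lay below the lowest control, and the 3 hairpin #3 libraries lay within the control range. A control set against the other 2 departs further than it would from the mean of all 3, which widens this range. Counts of the members summed to 2.73%, 2.56% and 2.43% of all counts in the control libraries, to 2.07%, 2.01% and 1.93% with hairpin #1 and to 2.73%, 2.69% and 2.65% with hairpin #3. In pooled cells, fewer cells with an ordinary level and a lower level in every cell cannot be told apart.

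The size of the shift depended little on which reference was used. Set against the mean of the hairpin #3 libraries, the median member stood at -0.39, -0.40 and -0.49 in hairpin #1 libraries A, B and C. Comparing libraries that carried the same letter, the median for hairpin #1 against control was -0.43 in A, -0.37 in B and -0.37 in C, and for hairpin #3 against control it was -0.03, 0.03 and 0.10. The hairpin #1 values were thus negative under each letter, whereas those of hairpin #3 took both signs.

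The whole distribution was displaced, rather than a few genes. For hairpin #1 against control, the median over members was -0.40 on the centred log2 scale, or 75.8% of control, with the middle 50% of members from -0.63 to -0.15. Below 0 lay 303 of 359 members, or 84.4%. The width of the middle 50% was 0.474 for the members and 0.482 for genes of other chromosomes, so members varied among themselves about as much as other genes did. For hairpin #3 against control the median was 0.04, and 45.7% of members lay below 0. Between the hairpins the spread was smaller and the displacement more uniform. There the median was -0.42, or 74.5% of hairpin #3, the width 0.239 against 0.282 on other chromosomes, and 346 members, or 96.4%, lay below 0. The comparisons share libraries, and each is given with its own values.

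**Figure D1:**
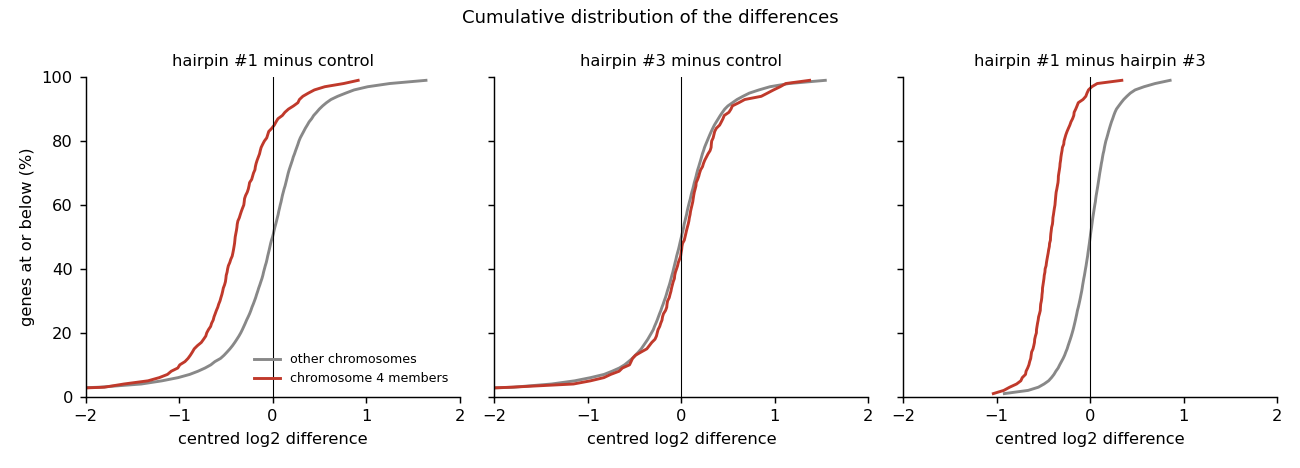
Cumulative share of genes (vertical axis, percent) at or below each centred log2 difference (horizontal axis) for the 359 chromosome 4 members (red) and 9125 genes of other chromosomes (grey), in 3 comparisons. The red curve is displaced to the left for hairpin #1 minus control, where its median is -0.40, and for hairpin #1 minus hairpin #3, where it is -0.42, and lies beside the grey curve for hairpin #3 minus control, where it is 0.04.

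Counted gene by gene, 208 members (57.9%) were lower and 20 (5.57%) higher with hairpin #1 than with control at an adjusted p under 0.05, where 19.7% of all 15975 genes tested were lower and 18.0% higher. The median fitted log2 fold change was -0.41 over the members and 0.00 over all genes tested. With hairpin #3 against control, 64 members (17.8%) fell and 63 (17.5%) rose, close to the 18.1% and 16.6% among all genes tested. Between hairpin #1 and hairpin #3, 171 members (47.6%) were lower with hairpin #1 and 3 (0.836%) were higher, where 6.33% and 5.3% of all genes tested were so. A change of at least 1 on the log2 scale was reached by 42 of the members called against control and by 6 of those called between the hairpins. These are 11.7% and 1.67% of the members, below the 16.3% and 3.93% of all genes tested that met the same criterion. The genes tested reach below the members' minimum of 10 CPM, so these shares are not matched for level. On other chromosomes with the same minimum, -1.01 was the 6th percentile of the centred difference between hairpin #1 and control. Among members it was the 9th percentile. The 99th percentiles were 1.64 and 0.92. Without any model, all 3 hairpin #1 libraries lay below all 3 control libraries for 222 members (61.8%), against 26.4% of genes on other chromosomes. They lay below all 3 hairpin #3 libraries for 251 members (69.9%), against 13.0%.

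Other chromosomes were set beside chromosome 4 by the same measure. The medians for hairpin #1 against control were -0.39 for 354 genes of chromosome 8 and -0.33 for 278 genes of chromosome 20, next to -0.40 for chromosome 4. With hairpin #3 against control, chromosome 8 stood at -0.23 and chromosome 20 at 0.01. Between the hairpins, chromosome 4 was at -0.42, chromosome 20 at -0.36 and chromosome 8 at -0.17. Chromosome 4 was thus not alone in its shift, and chromosome 20 had the same order of the groups. Chromosomes 19 and 11 stood at -0.18 and -0.15 with hairpin #1, and the 18 others between 0.00 and 0.15.

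**Figure D2:**
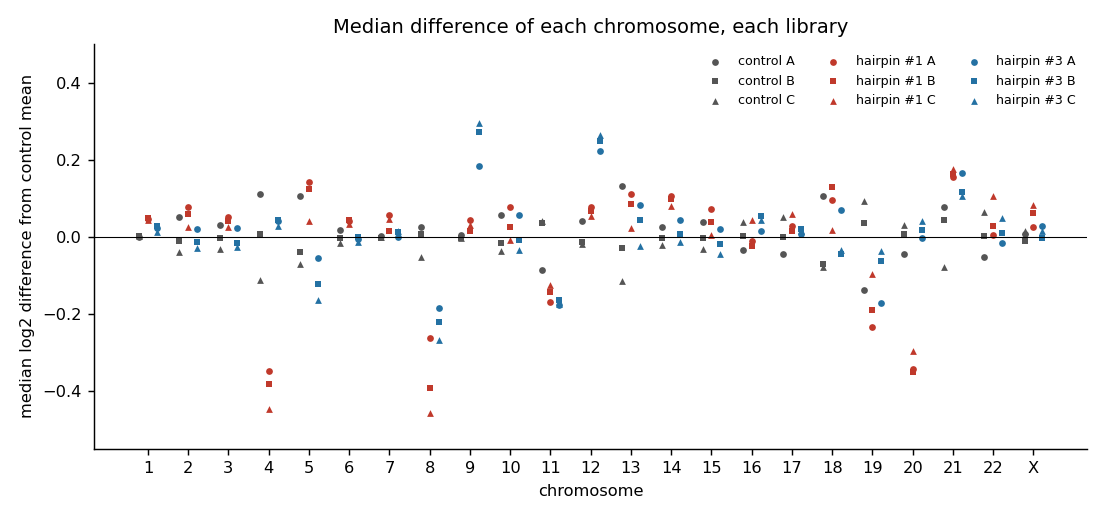
Median centred log2 difference from the control mean (vertical axis) for protein-coding genes of each chromosome (horizontal axis), with 1 point per library, colour for the group and shape for the letter. On chromosome 4 the hairpin #1 points lie at -0.35, -0.38 and -0.45, below the control points at 0.11, 0.01 and -0.11 and the hairpin #3 points at 0.04, 0.04 and 0.03.

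The low level was not restricted to the genes that the minimum selected. The 103 protein-coding chromosome 4 genes with a control mean of 1 to 10 CPM had a median of -0.37 for hairpin #1 against control and 0.18 for hairpin #3. The 48 chromosome 4 genes of other types with at least 1 CPM had medians of -0.45 and -0.02. Between the hairpins both sets were lower with hairpin #1, at -0.36 and -0.35.

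Along the chromosome, the running median over 21 neighbouring members was low from the first member to the last. The lowest group value against control was -0.61, at TRIM2, and the highest was -0.14, at USP53. Hairpin #3 against control had its own lowest group value, -0.26, at MND1, close to TRIM2. Calling a stretch shifted where at least 10 members in a row had a running median of -0.2 or lower in all 3 hairpin #1 libraries, 330 of 359 members (91.9%) fell in 3 stretches. The first began with member 1, ZNF595, a zinc finger gene that starts at position 53285 of chromosome 4 (hg38), and ended with member 238, CAMK2D, which encodes a calmodulin-dependent kinase and starts at 113451032. The second held 10 members, from JADE1 (start 128809623) to RAB33B (start 139453232). The last stretch held 82 members, from TBC1D9 (start 140620765) to FRG1 (start 189940788), the last member. By this measure the low region reached both the first and the last member.

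The borders inside the chromosome were less sharp than this count makes them. The 25 members between the first and second stretch, from ARSJ (start 113900284) to PGRMC2 (end 128288829), span 14.4 Mb and had a median of -0.26 with hairpin #1 against control, with 18 of 25 below 0. In the same interval, hairpin #3 against control stood at 0.13, and hairpin #1 against hairpin #3 at -0.40, with 24 of 25 below 0. The 4 members from SETD7 to ELMOD2, between the second and the last stretch, had medians of -0.39 against control and -0.42 against hairpin #3. A running median reaches over its neighbours, and the 10 members of the second stretch had a median of only -0.12 among themselves.

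The single libraries placed the inner borders differently. Library A left the shifted range after CAMK2D and re-entered it at LARP1B (start 128061268), and its running median rose to -0.00 at MAD2L1. Library B left it after UGT8 (start 114598455) and peaked at -0.11 at USP53. Library C never left it, since its highest running median was -0.23, at HERC3, and all 359 members lay in 1 stretch. Around the same members, hairpin #3 libraries A and B had their own highest running medians, 0.33 at MAD2L1 and 0.28 at USP53, and control C its lowest, -0.24 at PRSS12. Control A also had its highest running median, 0.27, at MAD2L1, so library A peaked at this gene in all 3 groups. Against the mean of hairpin #3, all 3 hairpin #1 libraries stayed at -0.21 or lower over all 359 members, so that no inner border was found. The group value then ran from -0.57 at ZNF721, near the start of the short arm, to -0.32 at SNX25, near the end of the long arm.

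**Figure D3:**
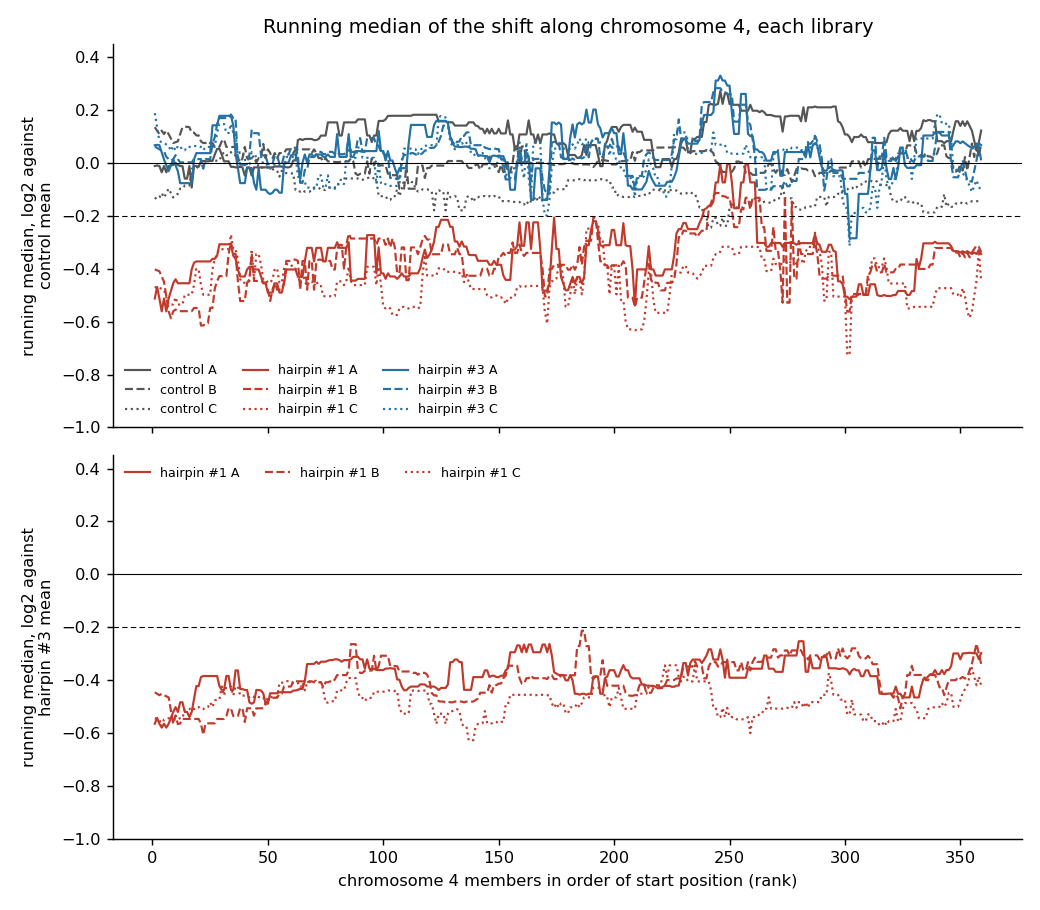
Running median over 21 chromosome 4 members (vertical axes, log2) against the rank of the member by start position (horizontal axis), for each library against the control mean (upper) and for the hairpin #1 libraries against the hairpin #3 mean (lower), with a dashed line at -0.2. The hairpin #1 lines run low from the first to the last member, with a rise above the dashed line in libraries A and B around MAD2L1 and USP53 in the upper panel and none in the lower.

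In 10 consecutive blocks of 35 or 36 members, the median for hairpin #1 against control ran from -0.51 to -0.27. The lowest was block 1, from ZNF595 to LYAR, which lies at the tip of the short arm and has a median GC content of 56.1%. The highest were block 7, from NPNT to KIAA1109, at -0.29, and block 8, from FGF2 to LSM6, at -0.27. Against hairpin #3 the blocks ran from -0.53 to -0.37, with block 1 lowest again. Members are not evenly spaced, and the widest gaps, 10.4 Mb between POLR2B and CENPC and 8.92 Mb between STIM2 and ARAP2, carry no value.

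The shift was similar across members of different level, length and base composition. With the members split into 3 groups of equal size by control level, the medians against control were -0.32, -0.40 and -0.42 from low to high, and against hairpin #3 they were -0.40, -0.43 and -0.44. Split by gene length the medians against control were -0.43, -0.39 and -0.38, and split by GC content -0.40, -0.39 and -0.41. Spearman's rho between each property and the difference lay between -0.07 and 0.09 over the 359 members in these comparisons, given as a description because all members share the same libraries. The members had a median GC content of 42.1%, against 48.1% for genes of other chromosomes.

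All 20 members of the list of ribosomal and translation factors lay below 0 with hairpin #1, and 16 (80%) were called lower and none higher, with a median of -0.45 beside -0.40 over all members. The share for each list is to be read beside the 57.9% of all members called lower and 5.57% called higher, and the 19.7% and 18.0% of all genes tested. RPS3A, a protein of the small ribosomal subunit, stood at 315, 326 and 356 CPM in control, at 245, 241 and 277 CPM with hairpin #1 and at 332, 348 and 384 CPM with hairpin #3. Its hairpin #1 libraries lay below those of both other groups (log2 fold change -0.39 ± 0.10, SE, against control, and 0.10 ± 0.10 for hairpin #3, adjusted p = 0.5091, edgeR). Its exons overlap those of SH3D19, and without strand the reads of both cannot be told apart. RPL9, of the large subunit, stood at 367, 409.9 and 428 CPM in control and at 297, 325 and 377 CPM with hairpin #1, where the groups overlapped. EIF4E, which binds the cap of messenger RNA, had a log2 fold change of -0.80 ± 0.13 and ABCE1, which recycles ribosomes, one of -0.48 ± 0.14. Among the members called lower, METTL14 and YTHDC1 serve the m6A mark of RNA, DCAF16 is a substrate receptor of a ubiquitin ligase and PPA2 is a mitochondrial pyrophosphatase, which are not ribosomal or translation factors.

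Of 19 members of mitosis and chromosome segregation, 17 lay below 0 with hairpin #1, with 9 (47.4%) called lower and none higher and a median of -0.32. TACC3, which stabilizes the fibres of the mitotic spindle, stood at 299, 307 and 288 CPM in control, 227, 181 and 198 CPM with hairpin #1 and 279, 294 and 258 CPM with hairpin #3. The hairpin #1 libraries of TACC3 again lay below both other groups (log2 fold change -0.56 ± 0.10 against control). MAD2L1, of the spindle checkpoint, and CCNA2, cyclin A2, had log2 fold changes of -0.43 ± 0.13 and -0.40 ± 0.13, although both lie in the interval that the running median left outside. PLK4, the kinase of centriole duplication, was not called, at -0.20 ± 0.17. CCNI, a cyclin-like protein, differed in order, with 276, 263 and 273 CPM in control, 281, 314 and 329.7 CPM with hairpin #1 and 368, 390.1 and 402 CPM with hairpin #3. It rose with hairpin #3 (0.52 ± 0.09, adjusted p = 0.000744, edgeR). MAEA, a subunit of a ubiquitin ligase, had the lowest value of the list, and SGMS2, a sphingomyelin synthase, was not called, and neither is a mitotic gene in the strict sense.

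Of 21 members of DNA replication, repair and chromatin, 11 (52.4%) were called lower and 1 (4.76%), JADE1, higher with hairpin #1, with a median of -0.38. H2AFZ, the histone variant H2A.Z, stood at 328, 309 and 279 CPM in control, 269, 184 and 229 CPM with hairpin #1 and 326, 343 and 363 CPM with hairpin #3. Its fold change was -0.43 ± 0.13 with hairpin #1 and 0.17 ± 0.13 with hairpin #3 (adjusted p = 0.3398, edgeR). WHSC1, the histone methyltransferase NSD2, was not called against control, at -0.20 ± 0.12, and its control and hairpin #1 libraries overlapped. SETD7, a lysine methyltransferase, showed one of the larger differences, with 143, 120.0 and 118 CPM in control, 70.4, 60.4 and 57.8 CPM with hairpin #1 and 134, 118 and 128 CPM with hairpin #3. Its fold change was -1.01 ± 0.11 with hairpin #1 and -0.00 ± 0.11 with hairpin #3 (adjusted p = 0.9895, edgeR).

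Of 25 members of ubiquitin and protein turnover, 16 (64%) were called lower and none higher, with a median of -0.41. UBE2D3, a ubiquitin-conjugating enzyme, stood at 379, 369.9 and 343 CPM in control, 252, 243 and 250.2 CPM with hairpin #1 and 325, 332 and 337 CPM with hairpin #3. Its hairpin #1 libraries were tightly grouped below the rest (fold change -0.55 ± 0.09). UBA6, a ubiquitin-activating enzyme, had a fold change of -0.85 ± 0.09. UCHL1, a deubiquitinase and the most abundant member, did not follow, with 491, 578 and 613 CPM in control, 558, 611 and 679 CPM with hairpin #1 and 520.5, 620.3 and 696 CPM with hairpin #3. All 3 groups of UCHL1 overlapped, and neither hairpin was called against control.

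Of 25 members of mitochondrial and energy metabolism, 18 (72%) were called lower and 1 (4%), the cystine transporter SLC7A11, higher with hairpin #1. The median was -0.50, and the list also holds genes of other compartments, such as SLC7A11 and UCHL1. PAICS, an enzyme of purine synthesis, stood at 435, 412 and 377 CPM in control, 334, 246 and 265 CPM with hairpin #1 and 408, 369.8 and 321 CPM with hairpin #3. PAICS was below every control library with hairpin #1 (-0.54 ± 0.13). Its neighbour PPAT, which catalyses the first step of the same pathway, had -0.66 ± 0.14. SLC25A4, the ADP/ATP carrier of the inner mitochondrial membrane, had -1.02 ± 0.09 with hairpin #1 and -0.30 ± 0.09 with hairpin #3 (adjusted p = 0.0201, edgeR). ACSL1, which activates long-chain fatty acids, had -1.59 ± 0.13 with hairpin #1 and fell with hairpin #3 as well, by 1.19 ± 0.12 (adjusted p = 6.31e-06, edgeR).

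Of 31 members of the secretory pathway and membrane traffic, 18 (58.1%) were called lower and 1 (3.23%), SEC24D, higher, with a median of -0.42. SPCS3, a subunit of the signal peptidase, stood at 199.97, 207 and 172 CPM in control, 136, 135 and 120.0 CPM with hairpin #1 and 166, 188 and 172 CPM with hairpin #3. Its hairpin #1 libraries lay below the others (-0.57 ± 0.10). SRP72, of the signal recognition particle, was not called at -0.33 ± 0.14, and its groups overlapped. LRBA, which controls the traffic of surface receptors, had -0.90 ± 0.11. SEC24D, a COPII coat protein, was higher with hairpin #1, at 0.38 ± 0.09.

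Of 21 members of actin, adhesion and cell surface, 11 (52.4%) were called lower and 4 (19.0%) higher, with a median of -0.47. FAT1, an atypical cadherin and member 358 of 359, stood at 441, 385 and 379 CPM in control, 271, 301 and 202 CPM with hairpin #1 and 419, 394 and 369 CPM with hairpin #3. Its difference was seen with hairpin #1 (-0.64 ± 0.13), and with hairpin #3 the fold change was -0.03 ± 0.13 (adjusted p = 0.8967, edgeR). WDR1, which promotes the disassembly of actin filaments, had -0.51 ± 0.10. ANXA3, an annexin, fell with hairpin #3 too, with 452, 414 and 385 CPM in control, 204, 161 and 191 CPM with hairpin #1 and 230.5, 170.1 and 168 CPM with hairpin #3 (-1.14 ± 0.14 for hairpin #3, adjusted p = 2.29e-05, edgeR). Between the hairpins ANXA3 had -0.03 ± 0.14, and its hairpin libraries overlapped.

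Signalling and transcription regulators had the list median closest to 0 against control. Of 29 members, 11 (37.9%) were called lower and 6 (20.7%) higher, with a median of -0.11. With hairpin #3 their median was 0.23, and between the hairpins it was -0.40, near that of all members. HTT, huntingtin, stood at 174, 150.5 and 153 CPM in control, 124, 101 and 97.8 CPM with hairpin #1 and 173, 145 and 148 CPM with hairpin #3, a pattern with hairpin #1 below both groups (-0.56 ± 0.12). CTBP1, a transcriptional corepressor, had -0.52 ± 0.13 with hairpin #1 and 0.05 ± 0.13 with hairpin #3 (adjusted p = 0.8139, edgeR), and shares exon positions with the antisense genes CTBP1-AS and CTBP1-AS2. Over the 8 lists, 185 members were in at least 1 list and 6 in more than 1. The list medians between the hairpins lay between -0.49 and -0.36, beside -0.42 over all members.

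**Figure D4:**
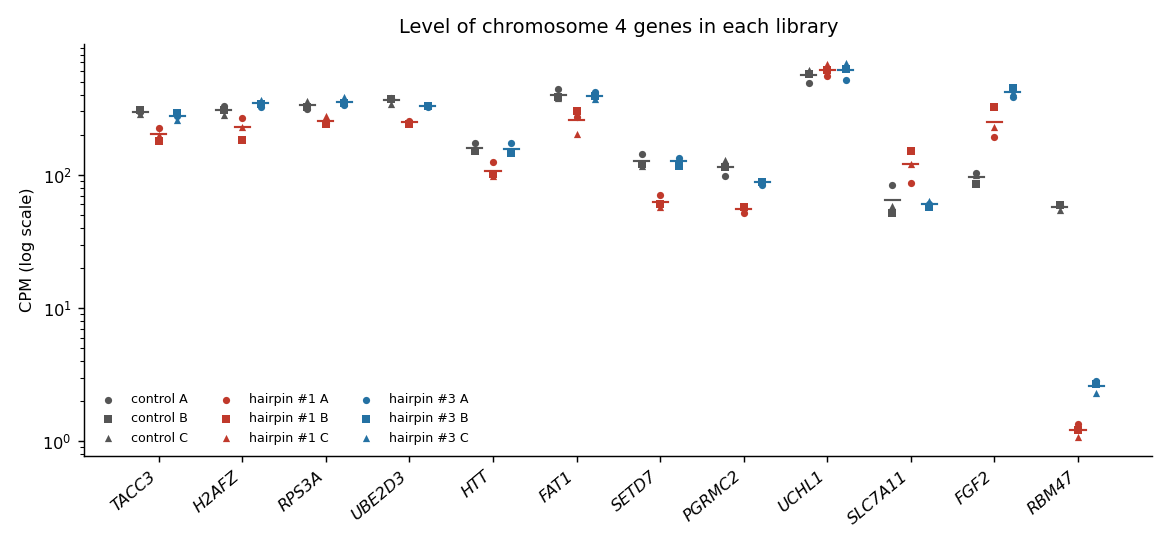
Level of 12 chromosome 4 genes in CPM (vertical axis, log scale) in each library, with 1 point per library and a short line at the group mean of 3 libraries. TACC3 to PGRMC2 have all hairpin #1 points below both other groups, UCHL1 overlaps in all groups, SLC7A11 has its hairpin #1 points highest, FGF2 is above control with either hairpin, and RBM47 is near 1 to 3 CPM with either hairpin.

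The genes at the ends of the stretches were read one by one. ZNF595, the first member, stood at 12.5, 10.1 and 9.74 CPM in control, 6.91, 6.40 and 5.74 CPM with hairpin #1 and 11.1, 11.6 and 8.18 CPM with hairpin #3, so that hairpin #1 lay below both groups (-0.76 ± 0.17). FRG1, the last, stood at 34.0, 35.0 and 31.5 CPM in control, 27.7, 27.1 and 28.7 CPM with hairpin #1 and 37.6, 36.1 and 29.8 CPM with hairpin #3. Its hairpin #1 libraries were also the lowest 3, although FRG1 was not called (-0.27 ± 0.11), and FRG1 has near-identical copies elsewhere in the genome that could share its reads. PGRMC2, a membrane haem-binding protein at the end of the interval outside, was one of the lowest genes there, with 97.7, 115 and 129 CPM in control, 51.8, 57.4 and 57.4 CPM with hairpin #1 and 84.6, 89.1 and 89.7 CPM with hairpin #3. It thus lay at -1.04 ± 0.11 beside a border of the shifted range, and fell with hairpin #3 as well (-0.38 ± 0.11, adjusted p = 0.0144, edgeR). CAMK2D and ARSJ, on either side of the first border, had -0.26 ± 0.14 and -0.30 ± 0.15, and RAB33B, ELMOD2 and TBC1D9 had -0.28 ± 0.15, -0.21 ± 0.11 and 0.08 ± 0.12. None of these 5 was called with hairpin #1.

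Counted against control, 56 members (15.6%) escaped the shift, with a centred difference of 0 or higher. Of these, 20 were called higher, which is 5.57% of all members beside 18.0% of all genes tested. The median of these 56 was 0.28 with hairpin #1 and 0.56 with hairpin #3, both against the same controls. Between the hairpins their median was -0.32, and that of the other 303 members was -0.44. Of the 56, 55 lay above 0 with hairpin #3 against control. Against hairpin #3, 53 of the 56 were lower, and 18 were called lower, where 6.33% of all genes tested were called lower. Only 3 members were at 0 or higher against both references, so nearly all that escaped against control were still below hairpin #3. On other chromosomes the 86th percentile of the difference between hairpin #1 and control was 0.39, with a median of 0. Among members, the cutoff of 0 lay about as far above their median of -0.40. The share of members that escaped was thus near the share of other genes lying as far above their own median.

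FGF2, basic fibroblast growth factor, was among the 56, with 104, 85.6 and 99.1 CPM in control, 194, 325 and 230.3 CPM with hairpin #1 and 387, 449 and 418 CPM with hairpin #3. The 3 groups of FGF2 did not overlap, with hairpin #1 in the middle (1.37 ± 0.16, and 2.12 ± 0.17 for hairpin #3, adjusted p = 3.839e-07, edgeR). Its exons overlap those of NUDT6, read from the other strand. ADAMTS3, a procollagen protease, had the largest rise, from 11.9, 10.7 and 9.88 CPM in control to 34.7, 50.7 and 33.9 CPM with hairpin #1 and 65.1, 54.7 and 46.6 CPM with hairpin #3. Both hairpins of ADAMTS3 lay above all controls and overlapped each other (1.87 ± 0.17 and 2.35 ± 0.17). FAT4, an atypical cadherin, stood at 35.6, 23.1 and 29.3 CPM in control, 66.5, 69.3 and 45.7 CPM with hairpin #1 and 87.3, 76.9 and 66.5 CPM with hairpin #3, and had 1.04 ± 0.18 and 1.39 ± 0.18. Among signalling genes, VEGFC, a lymphangiogenic growth factor, had 0.70 ± 0.20 with hairpin #1 and 0.91 ± 0.20 with hairpin #3. LIMCH1, an activator of non-muscle myosin, had 0.91 ± 0.15 and 1.02 ± 0.15, KIAA0922 had 0.84 ± 0.12 and 1.02 ± 0.12, and JADE1, a subunit of a histone acetyltransferase complex, had 0.77 ± 0.15 and 1.08 ± 0.15. Exons of JADE1 overlap those of SCLT1, and those of RAB33B overlap another gene, so reads could be shared there.

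Fewer members escaped when hairpin #3 was the reference. Only 13 of 359 (3.62%) were then at 0 or higher, and 3 of these, SEL1L3, SLC7A11 and MSMO1, were called higher than with hairpin #3. SEL1L3 and MSMO1 lie outside the rule for named genes and are named because the count is small. SLC7A11, the cystine transporter that supplies glutathione synthesis, stood at 84.4, 51.6 and 58.8 CPM in control, 87.4, 152 and 121 CPM with hairpin #1 and 60.6, 57.5 and 63.2 CPM with hairpin #3. All hairpin #1 libraries of SLC7A11 lay above the other groups, with library A only slightly above control A, at 0.89 ± 0.19 with hairpin #1 and -0.10 ± 0.20 with hairpin #3 (adjusted p = 0.7338, edgeR). SEL1L3 stood at 78.7, 71.6 and 74.7 CPM in control, 18.2, 31.3 and 30.7 CPM with hairpin #1 and 8.99, 9.81 and 11 CPM with hairpin #3, so it was below control with either hairpin and lower with hairpin #3. MSMO1, an enzyme of cholesterol synthesis, had 198, 218 and 206 CPM, 122, 179.9 and 190.5 CPM, and 107, 91.6 and 115 CPM in the same order of groups.

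At the other end, FGF5 and SPATA18 stood furthest below hairpin #3 on the centred log2 scale, which damps low levels. SOWAHB, with few counts under either hairpin, had the lowest fitted fold change but was not called (-2.36 ± 0.77, adjusted p = 0.067, edgeR). FGF5 and SPATA18 are named after their values were seen. FGF5, a fibroblast growth factor, stood at 18.6, 23.9 and 20.6 CPM in control, 18.2, 11.1 and 22.3 CPM with hairpin #1 and 57.5, 70.6 and 61.9 CPM with hairpin #3. FGF5 overlapped between hairpin #1 and control and rose with hairpin #3 (1.59 ± 0.20, adjusted p = 2.83e-05, edgeR). SPATA18, which takes part in mitochondrial quality control, stood at 15, 12.5 and 13.8 CPM in control, 5.09, 7.62 and 4.80 CPM with hairpin #1 and 18.3, 20.7 and 24.4 CPM with hairpin #3, with opposite differences (-1.24 ± 0.18 and 0.62 ± 0.17).

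**Figure D5:**
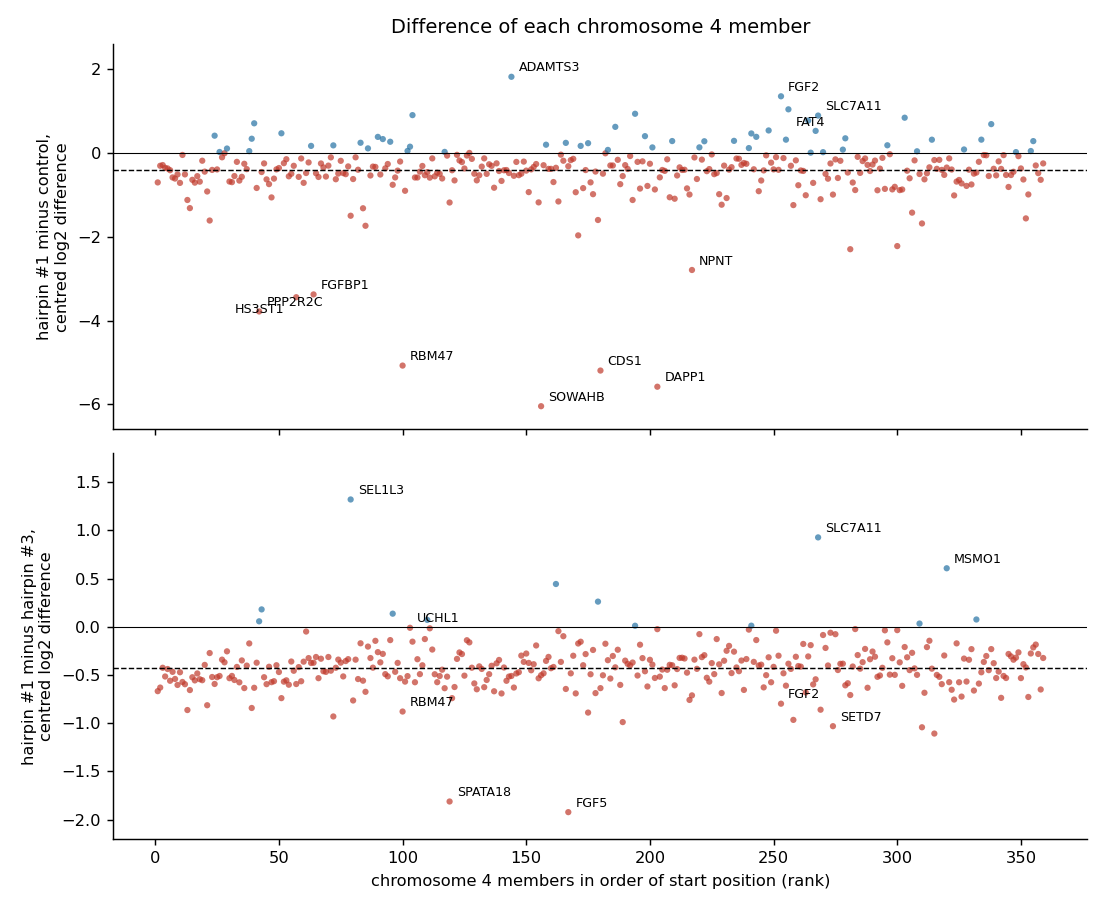
Centred log2 difference of each of the 359 chromosome 4 members (vertical axes) against its rank by start position (horizontal axis), for hairpin #1 minus control (upper) and minus hairpin #3 (lower), with blue points at 0 or higher, red points below 0 and a dashed line at the median. The upper panel has 56 blue points spread along the chromosome and a few members far below, and the lower panel has 13 blue points.

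A small group of members was lower by far more than the shift, with both hairpins. Such a group was not particular to chromosome 4. The 1st percentile against control was -4.33 for members and -4.47 for other chromosomes with hairpin #1, and -3.99 and -4.32 with hairpin #3. DAPP1, an adaptor protein that binds phosphoinositides, stood at 21.6, 25.5 and 24 CPM in control and had no count in any of the 6 hairpin libraries. With a floor of 3 counts over a group, DAPP1 was at least 508-fold lower with hairpin #1 and at least 449-fold lower with hairpin #3. SOWAHB, an ankyrin repeat gene, stood at 34.0, 38.4 and 35.7 CPM in control and had 1, 2 and 0 counts with hairpin #1, a ratio of 773 (exact 95% interval 264 to 3752), an interval that like the floor covers counting error only. With hairpin #3 SOWAHB stood at 0.470, 0.274 and 0.0920 CPM. RBM47, an RNA-binding protein of epithelial cells, stood at 59.8, 59.1 and 54.1 CPM in control, 1.35, 1.22 and 1.07 CPM with hairpin #1 and 2.82, 2.69 and 2.30 CPM with hairpin #3. The 3 groups of RBM47 did not overlap, and hairpin #1 was lowest (-5.57 ± 0.15, and -4.47 ± 0.13 for hairpin #3, adjusted p = 8.16e-11, edgeR). CDS1, an enzyme of phosphatidylinositol synthesis, stood at 68.0, 66.8 and 67.4 CPM in control, 1.49, 2.13 and 0.685 CPM with hairpin #1 and 2.76, 2.36 and 1.89 CPM with hairpin #3.

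PPP2R2C, a regulatory subunit of protein phosphatase 2A, HS3ST1, a heparan sulfate sulfotransferase, FGFBP1, a carrier of fibroblast growth factors, and NPNT, a ligand of integrins in the basement membrane, made up the rest of the 8 lowest members. Their fold changes with hairpin #1 were -4.15 ± 0.16, -4.34 ± 0.25, -3.43 ± 0.15 and -3.02 ± 0.18. With hairpin #3 they were -4.26 ± 0.17, -3.39 ± 0.23, -3.05 ± 0.15 and -2.25 ± 0.18. The summed epithelial markers given above were lower and PAX8 was higher in the same 6 libraries, and their part in these values was not tested.

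The promoters of these 8 genes, which were picked on their low values, are shown where they hold the E-box letters CACCTG or CAGGTG. These are the same letters read on opposite strands, and several repressors of epithelial genes bind them. Promoter windows of RefSeq (GRCh38.p14) were matched by symbol for 302 of 359 members, and the 250 bases before the start of transcription were searched. The letters occurred in 17.5% of 35116 windows of all genes, in 16.2% of the members with a window and in 3 of the 8. RBM47, PPP2R2C, HS3ST1, FGFBP1 and NPNT had none, nor had the 4 named members higher with hairpin #1 that had a window. The numbers are small, and whether 3 of 8 differs from the share of all genes was not tested. In the lines below, each 30-base stretch is written 5′ to 3′ on the strand of its gene with the E-box in capitals, at chr4:76898157-76898186 on the minus strand for SOWAHB, chr4:84583088-84583117 on the plus strand for CDS1 and chr4:99816612-99816641 on the plus strand for DAPP1.
SOWAHB: gccgccagggcgCAGGTGaaaccgactcgg
CDS1: cgtggagacgcgCACCTGgcaaccggaggc
DAPP1: gttgtccaatccCAGGTGgggtggttgcct
The E-box began 30 bases before the start in SOWAHB, 27 in CDS1 and 203 in DAPP1. The match is a description of letters, and no factor was measured.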

How the data were processed

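The deposited table held unnormalized counts, made by the authors by summing reads over genes. Per the labels, poly(A)-selected RNA was made into non-directional libraries, so reads carry no strand. The submitters' processing notes name HISAT2 2.0.5, featureCounts 1.5.0-p3 and hg38, and 340 of 359 members had the same position in GENCODE 29. Exons of 73 members overlap another gene at 1 CPM or more.

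Genes were filtered with filterByExpr (minimum count 10, minimum total 15), which left 15975 including all members, and tested with edgeR 4.0.16 (TMM, glmQLFit, glmQLFTest) in R 4.3.3 in 1 model of 3 groups, with Benjamini-Hochberg adjustment over all genes tested. A call needed an adjusted p under 0.05 and no fold. The model was checked on simulated data. Shifts used log2(TMM-scaled CPM + 0.5), which understates large changes of low genes. Nothing states that libraries came from separate cultures beyond the study's term biological replicates, so p-values measure the spread between these samples.

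Named genes were the 8 highest and 8 lowest with hairpin #1 among called members whose 3 libraries did not overlap control, the 6 most abundant, the ends of stretches and the 2 most abundant of each list. Further members illustrate a list or a small count and were picked after their values were seen. Members, lists and rules were chosen with earlier results of these data known. Alternatives were other scalings, filters, thresholds, windows, DESeq2 1.42.0, a letter block and left-out libraries. A trend on GC content, other centring and hairpin #3 as reference were added after seeing the data. The result of 1 gene that the rule names is not reported here.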

Additional observations from a re-analysis of the deposited data

Results flagged for a closer look

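Among the 42 members named by rule, 6 met all of the following conditions. The fitted differences of the hairpins from control had opposite signs, at least 1 of them was called, and the difference between the hairpins passed edgeR's test. Further named members, such as WHSC1, RPL9 and SRP72, had opposite signs without either difference from control being called. The hairpin #1 libraries in that difference are those on which chromosome 4 was chosen. Members picked as illustrations were not counted, and MAD2L1 among them met the same conditions. SLC7A11 was 0.99 higher (log2) with hairpin #1 than with hairpin #3 (adjusted p = 0.005035). The other 5 were lower with hairpin #1. The difference was -0.50 for MRFAP1 (adjusted p = 0.002503), -0.64 for CAMK2D (adjusted p = 0.008119) and -0.60 for H2AFZ (adjusted p = 0.008506). It was -0.48 for RPS3A (adjusted p = 0.007218) and -0.57 for CTBP1 (adjusted p = 0.01255). The last 5 values lie near the median of all members between the hairpins, -0.42, and whether they differ from it was not tested.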

How the results depend on the processing

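The median shift with hairpin #1 kept its sign under every alternative run. Removing a trend on GC content gave -0.42 against control and -0.45 against hairpin #3. The near-zero median of hairpin #3 against control, 0.04, moved to 0.00664 without centring, 0.0526 with a minimum of 1 CPM, 0.00918 with 50 CPM, 0.0210 when chromosomes 8, 11 and 20 were left out of the centring, and ranged from -0.0137 (without control C) to 0.0796 (without control A) over left-out libraries. A fold threshold of 1 left 42 of 228 called members for hairpin #1, 32 of 127 for hairpin #3 and 6 of 174 between the hairpins. These are 11.7%, 8.91% and 1.67% of members, below the 16.3%, 15.3% and 3.93% of all genes, which are not matched to the members for level. An adjusted p under 0.01 left 79 between the hairpins, or 22.0% of members beside 5.68% of all genes. Without 1 library the calls between the hairpins ran from 92 without hairpin #3 B to 187 without control A. These are 25.6% and 52.1% of members, beside 6.39% and 12.02% of all genes. The calls between the hairpins numbered 102 without hairpin #1 C, or 28.4% of members beside 8.08% of all genes. With the letter as a replicate block they were 273, and 273 and 177 for the hairpins against control (76.0%, 76.0% and 49.3% of members, beside 23.1%, 48.8% and 45.6% of all genes). Same-letter correlations of the deviations ran from 0.04 to 0.36, with all B pairs under 0.1. The A and C libraries correlated best with their own letter and the B libraries did not. The letter was not taken as pairing in the main model, so a part shared by letter stays in its spread. With hairpin #3 as reference, 13 members escaped in place of 56 and the stretch covered all 359 members in place of 330. A window of 11 members or a threshold of -0.3 split the chromosome into 9 or 8 stretches with 281 or 220 members. Library totals of 16850854 counts or more and 3 libraries a group set the precision.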
